A study of Mus musculus with 8 samples.

Results

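The genes described here are the DEAD box and DEAH box RNA helicases of mouse CD4 T cells, taken by name from the deposited gene table. A gene was a member when its symbol began with Ddx or Dhx and a digit. Such a symbol was carried by 53 of 16308 genes, and 48 were kept after Ddx5, Ddx17, Dhx9, Ddx58 and Dhx58 were left out by the same rule. The naming rule uses no measured value, although it was proposed with earlier results of these data known. The members comprised 34 Ddx and 14 Dhx genes.

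The cells came from C57BL/6 mice, and ribosome-depleted RNA was sequenced. Gene counts were read in 2 wild-type libraries of untreated naive CD4+ T cells and 2 wild-type libraries of Th17 cells, the helper cells that secrete interleukin-17. The Th17 cells were cultured for 72 h with IL-6 at 20 ng/mL, TGF-β at 0.1 ng/mL, anti-CD28 at 1 µg/mL and anti-CD3ε at 0.25 µg/mL, per the sample labels. The protocol fields also name 48 h and a TGF-β range of 0.1 to 5.0 ng/mL. Tables of A-to-I editing covered these 4 libraries and also 2 further wild-type Th17 libraries and 2 libraries of DDX5-deficient Th17 cells, labelled DDX5∆T, from cultures with the same treatment label. The driver of that deletion is not given in the sources used here, and gene counts of those 4 libraries were not analysed here.

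RNA helicases of this superfamily use ATP to unwind short RNA duplexes or to strip proteins from RNA. DEAD box proteins usually open a local duplex without travelling along it, while DEAH box proteins pull on a single strand from its 3′ side and drive the rearrangements of the spliceosome. A T cell that leaves the naive state grows, divides and makes many ribosomes, and helicases act at each step from splicing through export to translation and ribosome assembly.

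The family is named after an Asp-Glu-Ala-Asp or Asp-Glu-Ala-His box in the ATPase core. In the longest annotated coding sequence of each member (GENCODE M21, GRCm38), the 4 codons of Asp-Glu-Ala-Asp were found in 26 of 34 Ddx genes and those of Asp-Glu-Ala-His in 8 of 14 Dhx genes. Ddx39 and Ddx39b had a cysteine in place of the alanine, and Ddx11 had the Asp-Glu-Ala-His codons. Neither box nor the cysteine form was found in Ddx21, Ddx28, Ddx50, Ddx52 and Ddx60 or in Dhx30, Dhx32, Dhx34, Dhx36 and Dhx57. The match in Dhx29 was of the Asp-Glu-Ala-Asp kind, at codons 1118 to 1121. A match of letters is not a mapped site. The following coding stretches run 5′ to 3′ with the 4 box codons in capitals. They show the signature in some of the members described below, with Ddx3x beside Ddx3y and Ddx39 beside Ddx39b.
Ddx1: ctggtcctgGATGAAGCAGATgggcttctc
Ddx6: atagtgctaGATGAGGCAGATaaattgttg
Ddx3x: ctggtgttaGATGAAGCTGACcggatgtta
Ddx3y: ttagtattgGATGAAGCTGATaggatgctg
Ddx39: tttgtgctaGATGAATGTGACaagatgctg
Ddx39b: tttattttgGACGAGTGTGACaagatgctt
Ddx51: ctgatcattGATGAGGCTGACcggatgata
Dhx15: ataattcttGATGAGGCCCATgaaagaaca

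Expression values are given in CPM, the reads of a gene per 1e+06 reads of its library after TMM, a scaling that centres most genes between libraries. The library totals lay between 11768994 and 26624436 gene-assigned reads. Between replicates log2(CPM + 1) gave r = 0.993 for naive and 0.969 for Th17 cells over 11989 genes, which are not independent replicates. The T cell identity of both groups was visible in Cd4, at 1270 and 1410 CPM in the naive and 627 and 559 CPM in the Th17 libraries. Il17a, which encodes the defining cytokine of Th17 cells, was at 0 in both naive libraries and at 1240 and 924 CPM in the Th17 libraries. Summed levels in the 4 libraries ran from 0.52 to 2.96 CPM for 5 B cell markers, from 3.82 to 7.11 CPM for 6 myeloid markers, from 0.104 to 11.7 CPM for 4 erythroid markers and from 35.9 to 46.3 CPM for 6 CD8 and NK markers. Ms4a1 of the B cell list was at 0 in 3 of 4 libraries. The erythroid sum differed between the Th17 libraries, at 0.104 and 7.58 CPM, beside 11.7 and 7.89 CPM in the naive libraries. Sums can hide opposite changes. Nkg7 of the CD8 and NK list rose from 5.84 and 5.0 CPM in naive to 27.9 and 28.7 CPM in Th17 libraries, while Cd8b1 and Klrd1 fell. Cd14 of the myeloid list rose from 0.0531 and 0 CPM to 3.26 and 2.65 CPM, while Lyz2, Itgam and Fcer1g fell. The part of such cells in the results was not tested.

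After TMM scaling, Ddx1 and Ddx28 were higher and most spliceosomal helicases lower in Th17 than in naive libraries. Most helicases of ribosome assembly did not pass the test. With libraries scaled to total reads alone, Ddx1 and Ddx28 kept their calls. Under that scaling 3 of 5 DEAD box and 1 of 5 DEAH box helicases of the spliceosome were called lower. Of 47 members tested after TMM by edgeR's quasi-likelihood test at an adjusted p under 0.05, 5 rose, 24 fell and 18 were not called. The members called made up 61.7% of those tested, beside 65.1% of all 11989 genes tested. Higher calls made up 10.6% of the tested members beside 34.3% of all tested genes, and lower calls 51.1% beside 30.7%. The median log2 fold change of the tested members, Th17 over naive, was -0.42 beside 0.06 for all tested genes.

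The changes were small for this comparison. The median absolute log2 fold change was 0.50 in the members and 0.89 in all tested genes. These backgrounds were not matched for level. The median of the mean CPM was 83.0 for the tested members and 33.5 for all tested genes. A log2 change of at least 1 together with a call was reached by 7 members, 14.9% of those tested, beside 42.8% of all tested genes. Of the 48 members 44 had at least 10 CPM in each of the 4 libraries, as had 46.0% of all 16308 genes. In bulk RNA, fewer cells of a type and less RNA per cell cannot be told apart.

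The split between rises and falls depended on the scaling. With libraries scaled to total reads alone, the median of all tested genes moved by 0.30 in log2, and 10 members were called higher and 12 lower. Each of the 24 falls kept a value below 0 and each of the 5 rises a value above 0 under that scaling, while 12 of the 24 and all 5 of the 5 kept their call. Of the 18 members not called, 11 changed sign. A change of scaling moves all genes by nearly the same amount. The members' median relative to that of all tested genes, -0.48 under both scalings, was therefore unchanged by construction.

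**Figure D1:**
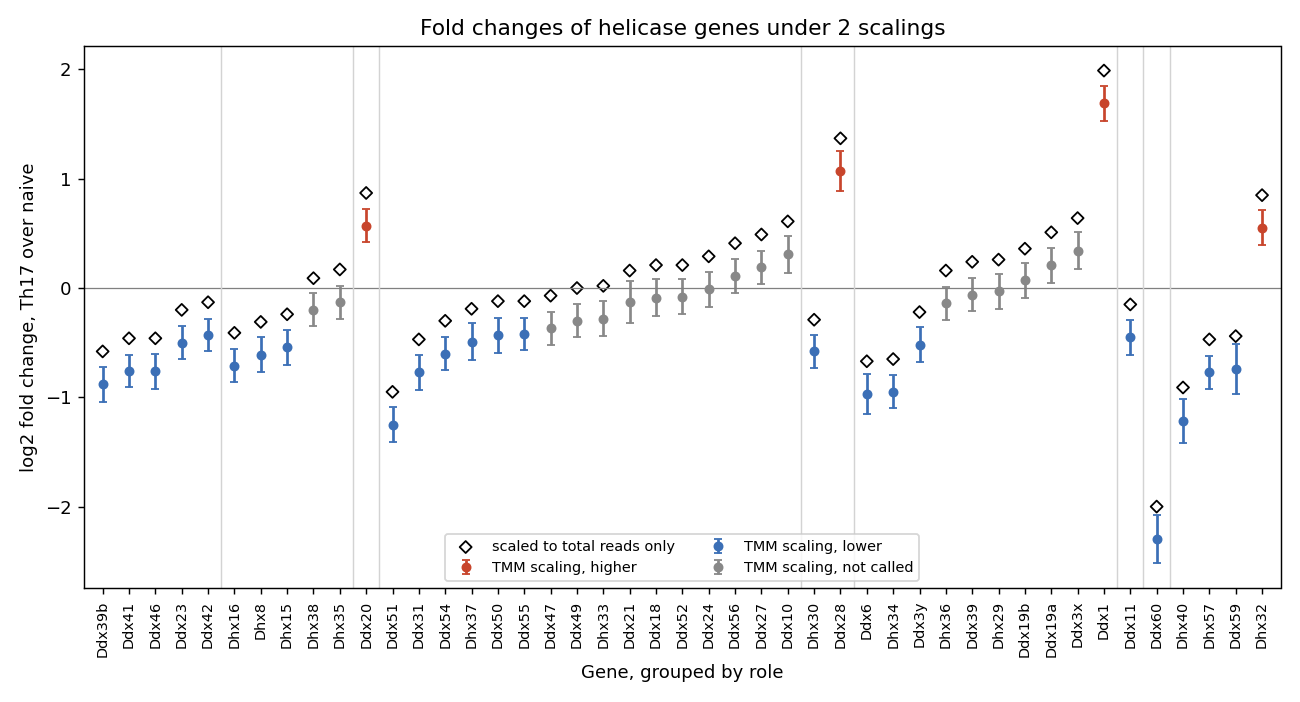
Fold change, Th17 over naive, in log2 (vertical axis) for the 45 members outside the germ cell group, grouped by role (horizontal axis). Filled points with bars give the TMM-scaled value ± SE, coloured by call, and open diamonds the value with libraries scaled to total reads alone. The diamonds lie above the points by a near-constant amount, and Ddx1, Ddx28, Ddx51, Ddx60 and Dhx40 stay at least 0.9 away from 0 under both scalings.

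The DEAD box helicases of the spliceosome all fell, 5 of 5. Of all tested genes 30.7% were called lower and 65.1% in either direction. Ddx39b, known as UAP56, acts in early spliceosome assembly and then links spliced mRNA to the export machinery. It lay at 537 and 526 CPM in the naive libraries and at 294 and 281 CPM in the Th17 libraries. The groups did not overlap, as in 10185 of all 11989 tested genes with both directions counted. The log2 fold change was -0.88 (SE 0.16, edgeR adjusted p 0.0013). Ddx46, which remodels the U2 snRNP at the branch site, lay at 251 and 210 CPM in naive and 143 and 130 CPM in Th17 libraries, a change of -0.76 (SE 0.16, edgeR adjusted p 0.0033). Ddx41, a late spliceosome component, lay at 98.4 and 112 CPM in naive cells and at 62.1 CPM in both Th17 libraries. Its change was -0.76 (SE 0.15, edgeR adjusted p 0.0023). An antisense gene covers 17.4% of its exon length on the opposite strand, and reads of the pair may not be separable.

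Smaller falls were measured for Ddx23, the helicase of the U5 snRNP, at -0.50 (SE 0.15), and for Ddx42 at -0.43 (SE 0.15). Ddx23 lay at 206 and 188 CPM in naive and 141 and 138 CPM in Th17 libraries. Ddx42 lay at 164 and 151 CPM in naive and 113 and 120 CPM in Th17 libraries. These were the members of the group that lost their call when a library was left out. Such a fit has less information on variation, so a lost call alone does not show that 1 library carried the fall. Ddx23 was not called without naive library 1 (log2 -0.47), Th17 library 1 (-0.54) or Th17 library 2 (-0.48), and Ddx42 was not called without any one of the 4 libraries, at -0.41 to -0.56. Ddx39b, Ddx41 and Ddx46 were also called when libraries were scaled to total reads.

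Among the 5 DEAH box helicases of the spliceosome 3 fell and 0 rose. That is 60.0% called, all lower, beside 30.7% of all tested genes called lower and 65.1% called in either direction. Dhx16, which acts in the step before the first splicing reaction, lay at 132 and 143 CPM in naive and 89.0 and 79.0 CPM in Th17 libraries, and changed by -0.71 in log2 (SE 0.15, edgeR adjusted p 0.0034). Dhx8, the enzyme that releases spliced mRNA, lay at 119 and 102 CPM in naive and 77.2 and 68.2 CPM in Th17 libraries, a change of -0.61 (SE 0.16). Dhx15, which takes the spent spliceosome apart, was the most abundant of the 5 at 349 and 378 CPM in naive and 238 and 262 CPM in Th17 libraries, a change of -0.54 (SE 0.16). Both Th17 libraries lay below both naive libraries for each of these genes. Groups without overlap, in either direction, were common, at 10185 of all 11989 tested genes.

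Dhx38, of the second splicing step, and Dhx35 did not pass, at -0.20 (SE 0.15) and -0.13 (SE 0.15). Dhx38 lay at 123 and 111 CPM in naive and 106 and 97.7 CPM in Th17 libraries. Dhx35 lay at 40.2 and 44.2 CPM and at 39.4 and 37.5 CPM. Of the 3 falls, Dhx16 alone kept its call with libraries scaled to total reads, at -0.41. Dhx8 lost its call without naive library 1 (-0.53). Dhx15 lost its call without naive library 1 (-0.63), naive library 2 (-0.55) or Th17 library 1 (-0.50).

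Proteins with a G-patch domain switch on DEAH box helicases, among them Dhx15. Of 18 such genes tested 9 fell and 2 rose, with a median log2 fold change of -0.51. The share called, 61.1%, was near the 65.1% of all tested genes. Over all tested genes, lower calls made up 30.7% and higher calls 34.3%. The largest falls were those of Zgpat at -2.05 (SE 0.16) and Rbm5, a splicing regulator, at -1.22 (SE 0.16). Nkrf and Rbm17 rose, by 0.67 (SE 0.19) and 0.45 (SE 0.17).

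Ddx20, called Gemin3, belongs to the SMN complex, which loads Sm proteins onto small nuclear RNAs, and it was one of the 5 members that rose. It lay at 29.4 and 30.7 CPM in naive and 45.9 and 43.3 CPM in Th17 libraries. Both Th17 libraries lay above both naive libraries, with a log2 fold change of 0.57 (SE 0.15, edgeR adjusted p 0.0075). Without naive library 1 the change was 0.50 and without naive library 2 it was 0.53, and neither was called. Of the other 8 genes of the complex 7 were tested, of which 4 rose and 0 fell, with a median of 0.74. The 57.1% called, all higher, stood beside 34.3% of all tested genes called higher and 65.1% called in either direction. Gemin8 rose by 2.31 (SE 0.33) and Gemin6 by 1.01 (SE 0.21), while Strap and Smn1, which is the gene mutated in spinal muscular atrophy in people, rose by 0.96 (SE 0.18) and 0.74 (SE 0.17).

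**Figure D2:**
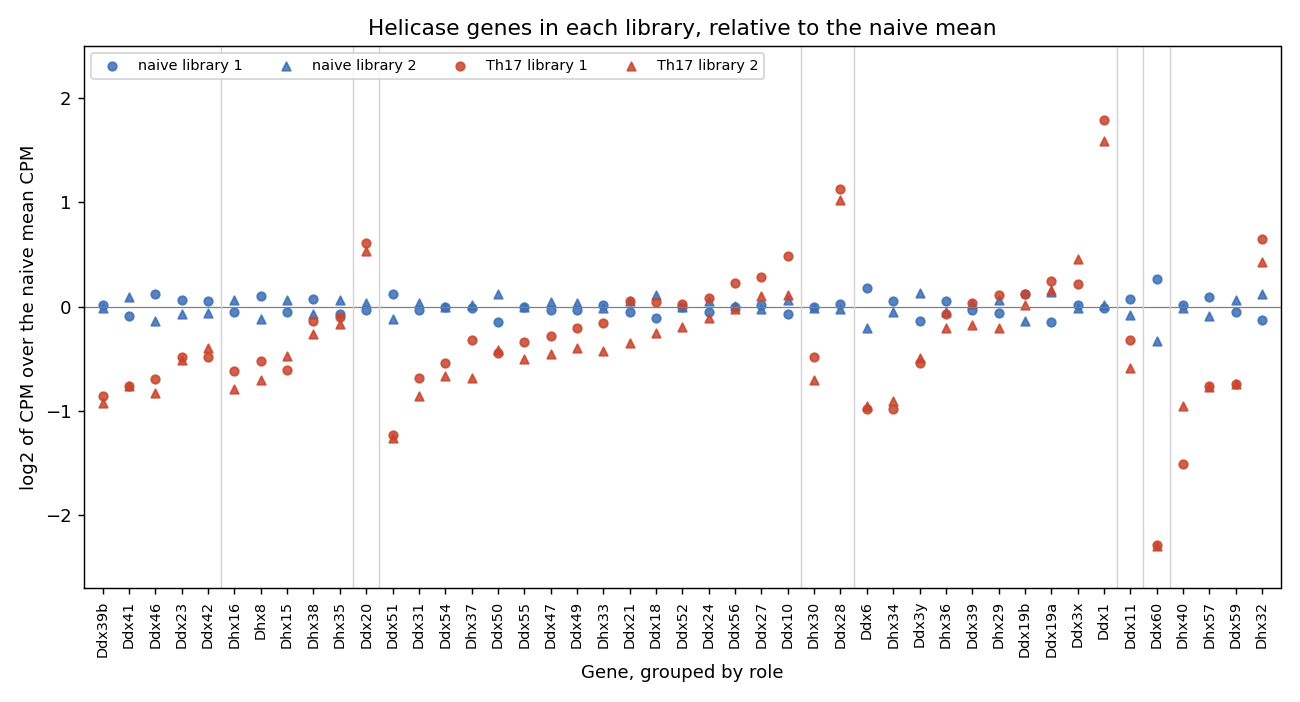
Level of each of 45 members in each library, as log2 of its CPM over the mean CPM of the 2 naive libraries (vertical axis), with genes grouped by role and ordered by fold change within a role (horizontal axis). Circles are library 1 and triangles library 2, naive in blue and Th17 in red. The Th17 points of the first 5 genes, the spliceosomal DEAD box helicases, all lie below the naive points. Of all 11989 tested genes 10185 had groups without overlap, in either direction.

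Ribosome assembly had the most members and the fewest calls in proportion. These nucleolar helicases act on the precursor ribosomal RNA and its small nucleolar RNAs. Of 16 members tested 0 rose, 6 fell and 10 were not called, 37.5% called beside 65.1% of all tested genes. All these calls were falls, and falls made up 30.7% of all tested genes. The median log2 fold change was -0.29. Summed over the 16 genes the level was 1720 and 1810 CPM in the naive and 1660 and 1410 CPM in the Th17 libraries.

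Ddx51, which acts on the large subunit, fell most. It lay at 55.7 and 47.2 CPM in naive and 21.9 and 21.4 CPM in Th17 libraries, a change of -1.25 (SE 0.16, edgeR adjusted p 1.5e-04). Ddx31 lay at 32.7 and 34.1 CPM in naive and 20.8 and 18.4 CPM in Th17 libraries and changed by -0.77 (SE 0.16, edgeR adjusted p 0.0028). These were the falls of the group that kept their call in all 11 alternative analyses. Ddx54 lay at 215 and 216 CPM in naive and 148 and 136 CPM in Th17 libraries and changed by -0.60 (SE 0.15). Its call was lost without Th17 library 2, at -0.54, and with libraries scaled to total reads, at -0.30. An antisense gene covers 14.2% of its exon length.

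The remaining 3 falls were smaller and their calls less stable. Dhx37, needed for the small subunit, changed by -0.49 (SE 0.17), from 58.7 and 59.9 CPM to 47.5 and 36.8 CPM. Ddx50 changed by -0.43 (SE 0.16), from 111 and 134 CPM to 90.5 and 92.1 CPM, and Ddx55 by -0.42 (SE 0.15), from 43.2 CPM in both naive libraries to 34.1 and 30.5 CPM. Ddx50 lost its call in 7 of 11 alternatives, among them those without naive library 2 (-0.36), Th17 library 1 (-0.44) or Th17 library 2 (-0.44). Dhx37 lost its call in 6 and Ddx55 in 5 of 11 alternatives. Among these were the fits without naive library 1 (-0.55 and -0.46), naive library 2 (-0.55 and -0.49) or Th17 library 2 (-0.32 and -0.34). Without Th17 library 2 the group held 2 falls, and without naive library 2 it held 3.

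The 10 members not called had log2 fold changes from -0.37 to 0.31. Ddx21, which couples RNA polymerase I and II activity to ribosome production, was the most abundant of them, at 357 and 384 CPM in the naive and 385 and 291 CPM in the Th17 libraries. Th17 library 1 lay above and Th17 library 2 below both naive libraries, and the change was -0.13 (SE 0.19, edgeR adjusted p 0.55). Ddx24 lay at 178 and 192 CPM in naive and 196 and 171 CPM in Th17 libraries, a change of -0.01 (SE 0.16). Ddx18 at -0.09 (SE 0.17) and Ddx52 at -0.08 (SE 0.16) also had overlapping groups, as had Ddx56 at 0.11 (SE 0.16). Ddx18 lay at 93.3 and 109 CPM in naive and 104 and 84.7 CPM in Th17 libraries, Ddx52 at 75.2 and 75.3 CPM and at 76.4 and 65.6 CPM, and Ddx56 at 62.9 and 63.2 CPM and at 73.6 and 62.2 CPM.

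The groups did not overlap in 5 further genes of this group that did not pass the test, an ordering also found in 10185 of all 11989 tested genes. Ddx47 lay at 126 and 133 CPM in naive and 106 and 94.2 CPM in Th17 libraries, at -0.37 (SE 0.15, edgeR adjusted p 0.059), and DESeq2 gave it an adjusted p of 0.0097. Ddx49 lay at 67.7 and 71.0 CPM against 60.2 and 52.5 CPM, at -0.30 (SE 0.15), and Dhx33 at 54.6 and 53.4 CPM against 48.5 and 40.3 CPM, at -0.28 (SE 0.16). Higher values in both Th17 libraries were found for Ddx27, at 122 and 119 CPM against 147 and 130 CPM, and for Ddx10, at 70.7 and 77.6 CPM against 104 and 79.9 CPM. Their changes were 0.19 (SE 0.15) and 0.31 (SE 0.17). Ddx10, Ddx27 and Ddx56 were called higher with libraries scaled to total reads, at 0.61, 0.49 and 0.41. Exons of Ddx49 overlap those of Homer3 on the opposite strand over 29.8% of their length, and reads from the overlap could come from either gene, since whether counting used strand is not given in the sources used here.

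The helicases of the mitochondrial ribosome went in opposite directions. Ddx28, of the large subunit, lay at 12 and 11.6 CPM in the naive and 25.7 and 23.9 CPM in the Th17 libraries, and rose by 1.07 (SE 0.18, edgeR adjusted p 8.1e-04). Dhx30, which acts in mitochondrial RNA granules, lay at 161 and 160 CPM in naive and 115 and 99.0 CPM in Th17 libraries and changed by -0.58 (SE 0.15, edgeR adjusted p 0.0087). The rise of Ddx28 was called in all 11 alternative analyses. The fall of Dhx30 was not called without Th17 library 2, at -0.48, or with libraries scaled to total reads, at -0.29. Exons of Ddx28 share 3.18% of their length with Dus2 on the opposite strand.

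Among 10 helicases of mRNA export, translation and decay 1 rose, 3 fell and 6 were not called, 40.0% called beside 65.1% of all tested genes. Ddx1 rose more than any other member with at least 10 CPM in a group. Ddx1 (chromosome 12, 13216973 to 13249213, GRCm38) works in the tRNA ligase complex, which joins the pieces of spliced tRNAs and of Xbp1 mRNA, and in RNA transport. It lay at 66.9 and 68.4 CPM in the naive and at 234 and 203 CPM in the Th17 libraries. Every Th17 value was above every naive value, the ratio was 3.23, and the log2 fold change was 1.69 (SE 0.16, edgeR adjusted p 2.3e-05). It was called in all 11 alternative analyses.

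Ddx6, the helicase of translational repression and mRNA decapping in P-bodies, fell. It lay at 593 and 455 CPM in the naive and 266 and 270 CPM in the Th17 libraries. The naive libraries differed from each other by more than the Th17 libraries did and did not overlap them, and the change was -0.97 (SE 0.18, edgeR adjusted p 0.0017). Of 11 P-body and decapping genes that work with it 5 fell and 0 rose, with a median of -0.48. That is 45.5% called, all lower, beside 30.7% of all tested genes called lower and 65.1% called in either direction. The decapping subunit gene Dcp1b fell from 42.6 and 36.8 CPM to 9.92 and 9.17 CPM, a change of -2.05 (SE 0.18), and Lsm14b, whose protein binds Ddx6, by -0.82 (SE 0.15).

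Dhx34, a factor of nonsense-mediated decay, lay at 51.7 and 47.9 CPM in naive and 25.2 and 26.6 CPM in Th17 libraries, and changed by -0.95 (SE 0.15, edgeR adjusted p 5.2e-04). Both Ddx6 and Dhx34 kept their call in all 11 alternative analyses. Dhx36, which unwinds G-quadruplexes, was not called at -0.14 (SE 0.15), with 96.5 and 89.7 CPM in naive and 88.4 and 80.8 CPM in Th17 libraries. Dhx29, which helps the small ribosomal subunit through structured leaders, was not called at -0.03 (SE 0.16), with 47.5 and 51.9 CPM and 53.7 and 43.1 CPM.

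Proteins with a MIF4G domain bind DEAD box helicases, as the eIF4G proteins bind eIF4A, and the list of such genes also held the MA3 domain gene Pdcd4. Of 9 tested 1 rose and 2 fell, 33.3% called beside 65.1% of all tested genes, with a median of -0.07. Pdcd4, an inhibitor of eIF4A, fell from 497 and 626 CPM to 60.2 and 71.4 CPM, a change of -3.09 (SE 0.20). Gle1, the activator of Ddx19 proteins at the nuclear pore, changed by -0.50 (SE 0.17), and Cwc22 of the spliceosome rose by 0.56 (SE 0.17).

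Some members come in closely related pairs, and the ratio within a pair does not depend on how libraries are scaled. Ddx3x and Ddx3y, on the X and Y chromosomes, encode near-equivalent helicases of translation initiation, with coding sequences identical at 84.6% of aligned bases. Ddx3x lay at 396 and 387 CPM in the naive and 453 and 537 CPM in the Th17 libraries, at 0.34 in log2 (SE 0.17, edgeR adjusted p 0.11). It was not called in the main test and was called by DESeq2 at 0.36 and with libraries scaled to total reads at 0.64. Ddx3y lay at 103 and 124 CPM in naive and 77.4 and 80.3 CPM in Th17 libraries and fell, with a log2 change of -0.52 (SE 0.16, edgeR adjusted p 0.018), a call lost without naive library 2 (-0.46) and with total reads (-0.22). Per kilobase of exon the ratio of Ddx3x to Ddx3y was 3.80 and 3.07 for naive cells against 5.77 and 6.59 for Th17 cells, with means of 3.43 ± 0.511 and 6.18 ± 0.578 (SD, n = 2).

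The ratios did not overlap between groups, but with 2 libraries against 2 the smallest p of a two-sided exact permutation test is 0.333. The other Y-linked genes on the list did not share one course. Kdm5d changed by -1.69 (SE 0.16), while Eif2s3y at -0.40 (SE 0.16, edgeR adjusted p 0.054) and Uty at 0.04 (SE 0.15) were not called. All 4 libraries held Y-linked RNA, with Uty between 31.2 and 33.6 CPM, and the sex of the mice is not given in the sources used here. Whether the share of male cells moved with the ratio was not tested.

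Ddx39 and Ddx39b, the pair with the cysteine form of the box, are both adaptors between splicing and export, with 81.7% identity over the aligned coding bases and 0 shared windows of 50 bases. Ddx39 was not called. It lay at 128 and 133 CPM in the naive and 134 and 116 CPM in the Th17 libraries, at -0.06 (SE 0.15, edgeR adjusted p 0.73). The ratio of Ddx39 to Ddx39b per kilobase was 0.176 and 0.185 for naive cells against 0.333 and 0.303 for Th17 cells, a mean of 0.180 ± 0.00661 against 0.318 ± 0.0214 (SD, n = 2). Ddx39b was the more abundant of the pair in each library. Exons of Ddx39 overlap those of Adgre5 on the opposite strand over 17.4% of their length, and Adgre5 lay at 699 and 653 CPM in naive and 67.9 and 62.6 CPM in Th17 libraries. The part of reads from Adgre5 in the count of Ddx39 was not tested.

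Ddx39b brings the TREX complex to spliced mRNA. Of 11 TREX genes tested 2 rose and 3 fell, 45.5% called beside 65.1% of all tested genes, with a median of 0.04. Chtop and Poldip3 changed by -1.06 (SE 0.16) and -0.75 (SE 0.16), and the adaptor gene Alyref and the THO subunit gene Thoc7 rose by 0.71 (SE 0.16) and 0.57 (SE 0.15).

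Ddx19a and Ddx19b, neighbours on chromosome 8, act in mRNA export at the nuclear pore. Their coding sequences were identical at 93.2% of aligned bases, and 28.1% of the 50-base windows of Ddx19a transcripts also occur in Ddx19b, so their counts may share reads and are uncertain. Neither was called. Ddx19a lay at 58.8 and 71.6 CPM in naive and 77.5 and 72.9 CPM in Th17 libraries, at 0.21 (SE 0.16), and was called only with libraries scaled to total reads, at 0.51. Ddx19b lay at 69.4 and 58.0 CPM and at 69.1 and 64.5 CPM, at 0.07 (SE 0.16). Their ratio per kilobase averaged 2.37 ± 0.623 for naive against 2.57 ± 0.0153 for Th17 libraries (SD, n = 2), with overlapping libraries.

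Ddx21 and Ddx50 lie side by side on chromosome 10, and no 50-base window was shared between their transcripts. The ratio of Ddx21 to Ddx50 per kilobase was 6.26 and 5.61 for naive cells against 8.32 and 6.17 for Th17 cells. The groups overlapped.

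**Figure D3:**
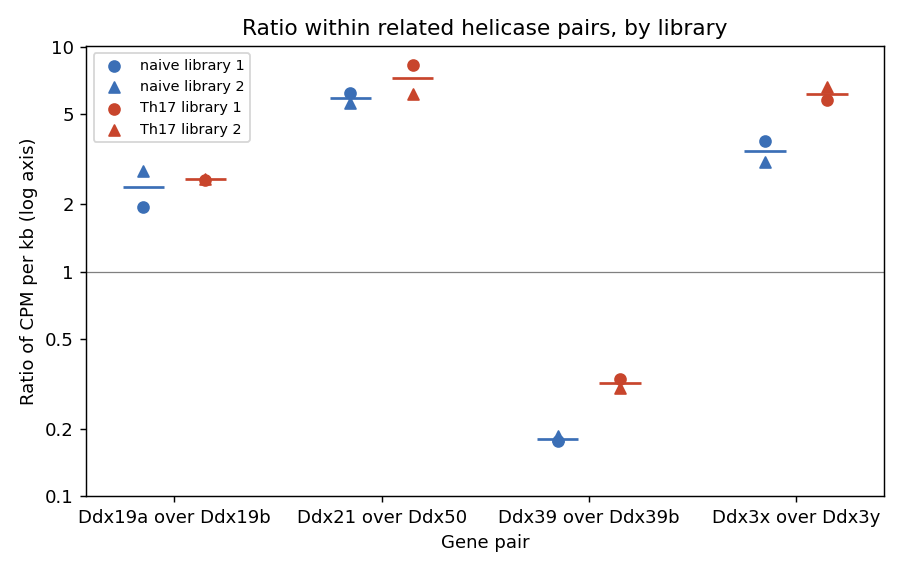
Ratio of CPM per kilobase of exon within 4 related pairs (vertical log axis) in each library, with circles for library 1, triangles for library 2 and short lines at the mean of each group, naive in blue and Th17 in red. The groups are apart for Ddx39 over Ddx39b, at 0.176 to 0.185 and 0.303 to 0.333, and for Ddx3x over Ddx3y, at 3.07 to 3.80 and 5.77 to 6.59, and overlap for the other pairs.

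Ddx60, an interferon-induced helicase of antiviral sensing, had the largest fall among members above 10 CPM. It lay at 73.5 and 48.6 CPM in the naive and 12.5 and 12.4 CPM in the Th17 libraries, a ratio of naive to Th17 of 4.91. The log2 fold change was -2.30 (SE 0.22, edgeR adjusted p 4.5e-05), called in all 11 alternative analyses. Ddx11, a DNA helicase of sister chromatid cohesion, lay at 50.2 and 45.1 CPM in naive and 38.2 and 31.7 CPM in Th17 libraries, at -0.45 (SE 0.16, edgeR adjusted p 0.037). That call was lost in 6 of 11 alternatives, among them those without naive library 1 (-0.41), naive library 2 (-0.60) or Th17 library 2 (-0.32).

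Of 4 members without an assigned role 1 rose and 3 fell, 100% called beside 65.1% of all tested genes. Dhx40 lay at 72.8 and 71.3 CPM in naive and 25.3 and 37.1 CPM in Th17 libraries, a change of -1.22 (SE 0.20, edgeR adjusted p 7.2e-04). It was not called without naive library 1 (-1.23) or naive library 2 (-1.30), where 1 naive library is left. Dhx57 lay at 62.8 and 55.4 CPM against 34.9 and 34.6 CPM, a change of -0.77 (SE 0.15), and kept its call throughout. Ddx59, which is linked to ciliary signalling, lay at 13.3 and 14.4 CPM against 8.26 CPM in both Th17 libraries, a change of -0.74 (SE 0.23). Its call was lost without naive library 1 (-0.84) or naive library 2 (-0.76) and with total reads (-0.44). Dhx32, a relative of Dhx15, rose from 29.1 and 34.6 CPM to 50.1 and 42.9 CPM, by 0.55 (SE 0.16). It shares 4.89% of its exon length with Bccip on the opposite strand. The call of Dhx32 was lost with no filter on low counts (0.52) and without naive library 1 (0.39), naive library 2 (0.60) or Th17 library 1 (0.40).

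Helicases known from germ cells were near the detection limit. Ddx43 had 34 and 25 reads in the naive and 6 and 1 reads in the Th17 libraries and was called lower, with a ratio of summed reads of 0.0933 and an exact 95% interval of 0.036 to 0.205. Ddx25 had 1 read in each naive library and 25 and 12 reads in the Th17 libraries and was called higher, with a ratio of 14.5 (3.75 to 125). Ddx4, known as Vasa, did not pass the filter on low counts, with 1 read in each naive library and 12 and 7 reads in the Th17 libraries, a ratio of 7.47 (1.80 to 66.1). Intervals cover counting error only. An antisense gene covers 15.9% of the exon length of Ddx43. Neither Ddx43 nor Ddx25 was called without naive library 1 (log2 -3.57 and 3.50) or naive library 2 (-3.64 and 3.85). Ddx25 was also not called with no filter on low counts (3.69), and it did not pass the filter without Th17 library 1. It also did not pass the filter of a mean normalized count of at least 10. More genes of the whole table had a read in each Th17 library than in either naive library, and the part of this in the rise of Ddx25 was not tested. The germ cell genes Dazl and Tdrd1 summed to between 0 and 0.312 CPM in the 4 libraries.

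Levels can be compared between genes per kilobase of annotated exon. In naive cells Ddx39b stood first at 141 ± 2.02 CPM per kb, followed by Ddx3x at 74.2 ± 1.29, Ddx21 at 71.5 ± 3.77 and Ddx6 at 65.2 ± 12.2 (SD, n = 2). Ddx3x, Ddx21 and Ddx6 lay within the spread of their neighbours in that order. In Th17 cells Ddx3x stood first at 93.8 ± 11.2 CPM per kb, followed by Ddx39b at 76.1 ± 2.41, Ddx21 at 65.2 ± 12.9 and Ddx1 at 43.0 ± 4.31 (SD, n = 2). There Ddx39b and Ddx21 lay within their spread, as did Ddx1 and Ddx18, which followed at 38.0 ± 5.53. Ddx1 moved from rank 27 of 48 in naive cells to rank 4 in Th17 cells. Ddx6 moved from rank 4 to rank 6.

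**Figure D4:**
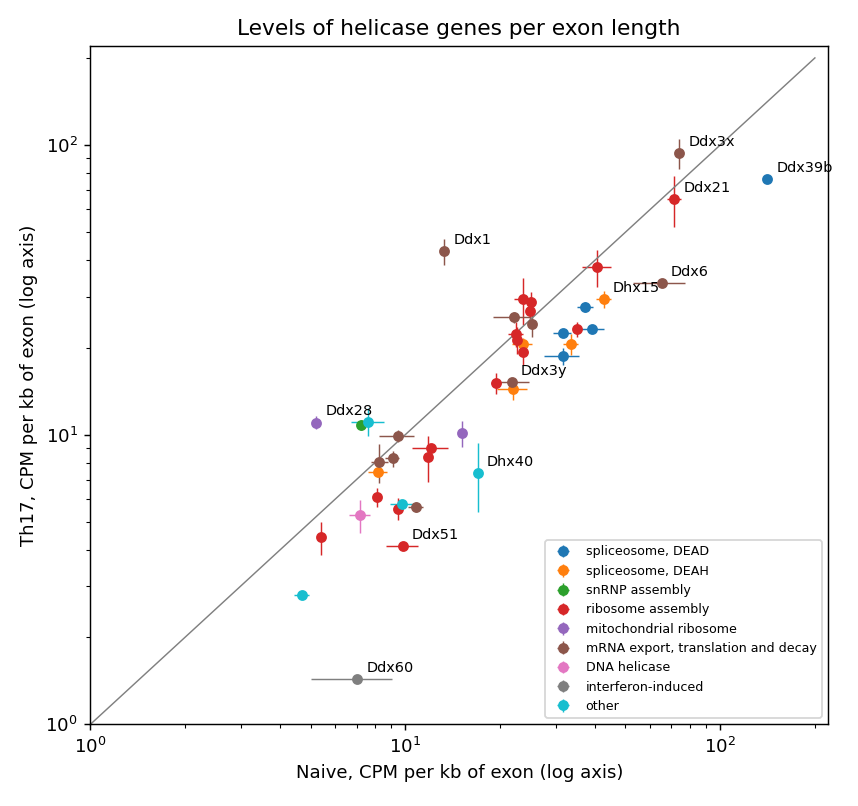
Mean level of 45 members in CPM per kilobase of exon, naive on the horizontal and Th17 on the vertical log axis, with bars of 1 SD (n = 2 libraries), coloured by role, and a diagonal of equal level. Ddx1, at 13.3 in naive and 43.0 in Th17 cells, lies farthest above the diagonal, and Ddx60 farthest below it.

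DEAD and DEAH box genes with other names were also measured. Eif4a1, the helicase of the cap-binding complex, lay at 597 and 688 CPM in naive and 1160 and 1080 CPM in Th17 libraries and rose by 0.80 (SE 0.18), whereas Eif4a2 changed by -0.66 (SE 0.21), from 564 and 700 CPM to 338 and 464 CPM. Dqx1 changed by -1.96 (SE 0.28), and Eif4a3 of the exon junction complex, at -0.31, and the meiotic regulator gene Ythdc2, at 0.23, were not called. Of the 5 helicases that the naming rule left out 3 fell and 0 rose. These 60.0% stood beside 30.7% of all tested genes called lower and 65.1% called in either direction. The falls were those of Ddx58 at -1.47 (SE 0.16), Ddx5 at -1.18 (SE 0.21) and Ddx17 at -0.76 (SE 0.17). Dhx9 at -0.35 (SE 0.17) and Dhx58 at 0.49 (SE 0.19) were not called.

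The authors' deposited table, made with DESeq2, gave an adjusted p under 0.05 to 30 of 48 members, 5 higher and 25 lower. The share of all genes under 0.05 there was not counted here, so this number has no background beside it. In the authors' deposited table Ddx3x had an adjusted p of 0.025, Ddx47 one of 0.031 and Ddx25 one of 0.084, each on the other side of 0.05 from its edgeR value.

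Editing was a second readout on the same genes. Of 869 sites in the table of naive and Th17 cells 4 lay in members, 3 in Ddx6 and 1 in Ddx19b. Of 355 sites in the table of wild-type and DDX5-deficient cells 1 lay in a member, again in Ddx6. All lie in the last exon, in the 3′ UTR, as annotated by GENCODE M21 (GRCm38, the mm10 build of the tables). Their surroundings are given 5′ to 3′ on the strand of the gene, with the edited adenosine in capitals, 14 bases to each side.
Ddx6, chromosome 9, position 44637589, plus strand: agcagctaaagatgAgaggggctcagttt
Ddx6, chromosome 9, position 44638184, plus strand: ctggcagatgccttAggtggtagtgttgc
Ddx6, chromosome 9, position 44638191, plus strand: atgccttaggtggtAgtgttgctttaaac
Ddx19b, chromosome 8, position 111005126, minus strand: atttgtgatataaaAgcaggaagttcagg

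The first Ddx6 site lies 1111 bases after the last coding base of the gene. It was edited at 26.0% and 36.8% of reads in the naive libraries and was not listed for the Th17 libraries of that table. In the second table it was edited at 8.82% and 16.7% in the wild-type Th17 libraries and at 9.26% and 8.70% in the DDX5-deficient libraries. The wild-type and deficient libraries overlapped. Coverage was known in wild-type library 2 alone, where 8 of 48 reads were edited, an exact Clopper-Pearson 95% interval of 7.48% to 30.2%. The values of the naive and the wild-type libraries stand in separate tables and were not tested against each other.

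The other Ddx6 sites were edited at 3.47% and 4.76% and at 8.47% and 8.98% in the naive libraries and were not listed for Th17 cells. The Ddx19b site was listed for Th17 cells alone, at 6.82% and 12.5%. In Th17 library 2 that was 2 of 16 reads, an interval of 1.55% to 38.3%, so the depth there does not fix the level closely. A site that is not listed for a group is not a site at 0.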

How the data were processed

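Members and gene lists were chosen with earlier results of these data known. The gene table held, per the file headers, the original counts per gene and library, made by the authors with STAR 2.6.1a and featureCounts on mm10 per the submitters' processing notes. Its normalized signal is the deposited count divided by a size factor per library. The deposited log2 fold change, p-value, adjusted p-value and Wald score are the authors' DESeq2 1.18.1 results. In the SAILOR tables the deposited edited fraction, on a scale of 0 to 1, is printed here as a percent. Their confidence score and coverage count are also as deposited. The product of fraction and coverage came out whole, to within 0.01, at 100% of sites in library 2 of the Th17 and wild-type groups and at 6.5% to 7.9% in the other libraries. The coverage was therefore taken as that of library 2. Counting settings, strand use and the SAILOR version are not given in the sources used here.

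Counts were fitted with edgeR 4.0.16 (R 4.3.3): filterByExpr, TMM, robust quasi-likelihood on group alone, Benjamini-Hochberg adjustment over all 11989 tested genes and a call at an adjusted p under 0.05. The fit was also run on simulated counts. Far fewer genes changed there than were called here, with rises and falls equal in number, so that run cannot test the scaling used here. Alternatives were DESeq2 1.42.0, limma-voom 3.58.1, RLE size factors, total reads, no filter, a mean normalized count of at least 10, a replicate block and leaving out each library. Leaving out a library leaves 1 in its group, which is then assumed to vary like the other group. Exon lengths, coding sequences and overlaps came from GENCODE M21, which held 16295 of the 16308 gene identifiers, and exon length is the union over transcripts. Intervals of read ratios are exact conditional binomial intervals. Named genes are up to 4 called members of each role with the largest and up to 2 with the smallest change, members not called, paired members and the 3 most abundant per length, and in the partner lists up to 2 called in each direction. Members outside this rule are given so that each is accounted for. Adgre5, Bccip, Homer3, Dus2, Strap, Smn1, Nkg7, Cd8b1, Klrd1, Cd14, Lyz2, Itgam and Fcer1g were named after their values were seen. The series' design text calls the 2 libraries of a group independent biological replicates.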

Additional observations from a re-analysis of the deposited data

How the results depend on the processing

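With the replicate block 5 members were higher and 24 lower, the counts of the unblocked fit, and 4094 genes were higher and 3644 lower. The labels do not state a pairing. The column names of library 2 of both groups carry the same number, which may mark a shared source, while those of library 1 carry different numbers. Differences between library 1 and library 2 of naive cells correlated with those of Th17 cells at r = -0.0345 over 11989 genes. The block and this value pair library 1 as well, so a shared source of library 2 alone was not tested. Whether library 2 of both groups came from the same animal is not given in the sources used here. With libraries scaled to total reads 10 members rose and 12 fell, and 16 and 15 of the partner and related genes, against 10 and 24 with TMM. With no filter on low counts 3 members rose. Leaving out a library in turn gave 2 to 5 members higher and 14 to 20 lower, 3 to 10 partner and related genes higher, and 2380 to 4847 genes higher over the whole table, the lowest without naive library 2. Of the 29 calls on members, 12 held in all 11 alternatives. Uncalled values that changed sign with total reads were Ddx18 at 0.21, Ddx21 at 0.16, Ddx24 at 0.29, Ddx39 at 0.24, Ddx49 at 0.00, Ddx52 at 0.21, Dhx29 at 0.26, Dhx33 at 0.02, Dhx35 at 0.17, Dhx36 at 0.16 and Dhx38 at 0.09. Ddx24 was at 0.02 with DESeq2 and with RLE. Leaving out each library in turn gave log2 ranges across 0, of -0.28 to 0.05 for Ddx18, -0.13 to 0.16 for Ddx19b, -0.38 to 0.06 for Ddx21, -0.14 to 0.09 for Ddx24, -0.20 to 0.04 for Ddx39, -0.23 to 0.02 for Ddx52, -0.05 to 0.23 for Ddx56 and -0.24 to 0.12 for Dhx29. Not divided by length, the ratio of Ddx19a to Ddx19b was 1.04 in naive and 1.13 in Th17 cells, that of Ddx21 to Ddx50 3.03 and 3.70, and that of Ddx39 to Ddx39b 0.246 and 0.433. Both ways of assigning edited sites gave 5 in members.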
